A study of Homo sapiens with 12 samples.

Results

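The EGF receptor family and its ligands were followed here through 8 genes, chosen by name from the 32152 genes of one RNA-seq table: the receptors EGFR, ERBB2 and ERBB3, and the ligands AREG, EREG, HBEGF, TGFA and NRG1. The rule used no measured value, though it was set with earlier results of these data known. Their identifiers in the table are ENSG00000146648.15 (EGFR), ENSG00000141736.13 (ERBB2), ENSG00000065361.14 (ERBB3), ENSG00000109321.10 (AREG), ENSG00000124882.3 (EREG), ENSG00000113070.7 (HBEGF), ENSG00000163235.15 (TGFA) and ENSG00000157168.18 (NRG1), and positions are on GRCh38. The table held 12 libraries from 2 human breast cancer lines of the triple-negative kind: Hs-578T and MDA-MB-231. In each line, parental cells were set against cells labelled ERK5-ko, in which CRISPR/Cas9 had been aimed at the gene of the kinase ERK5 (MAPK7), and against cells labelled MEK5DD, in which MEK5, the activator of ERK5, is constitutively switched on. Each of the 6 groups had 2 libraries, whose labels differ in a number given below. The labels do not say whether these were separate cultures, so p-values measure the spread between these libraries, which may be technical. The MDA-MB-231 cells labelled ERK5-ko descend from a single clone, and those of Hs-578T come from a clone that is not named for these libraries. How the MEK5DD cells were made was not given in the sources used here. The labels also carry a number after the letter p, whose meaning they do not state: 29 and 30 for MDA-MB-231 parental, 7 and 8 for ERK5-ko, 10 and 11 for MEK5DD, 83 and 84 for Hs-578T parental, and 8 and 9 for both derived Hs-578T lines. Whatever this number marks cannot be told apart from the genotype in any comparison with parental cells, nor between ERK5-ko and MEK5DD in MDA-MB-231.

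The family works by ligand-induced pairing of receptors at the cell surface. AREG, EREG, TGFA and HBEGF are made as membrane-bound precursors, are cut free by proteases of the ADAM family and bind EGFR. NRG1 binds ERBB3, whose own kinase is weak, and ERBB2 binds no known ligand and serves as the partner of the others. Many triple-negative breast cancer lines carry much EGFR, and both receptors and ligands feed the RAS-ERK and PI3K pathways.

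MAPK7 RNA did not fall where ERK5 was targeted. It stood at 13.3 and 14.3 RPKM (reads scaled to the length of the gene and to the mapped reads of the library) in MDA-MB-231 parental cells and at 16.3 and 17.8 RPKM in those labelled ERK5-ko. In Hs-578T it was 14.0 and 16.0 RPKM in parental cells and 17.8 and 18.1 RPKM in those labelled ERK5-ko. RNA level therefore gives no check of the knockout. A small cut in the coding sequence can leave RNA in place, but the edit itself was not examined here. The paper reports a significant loss of ERK5 protein by Western blot in its knockout cells of both lines. The groups are called by their labels throughout. MAP2K5, the gene of MEK5, rose from 12.9 and 13.6 RPKM to 188 and 184 RPKM with MEK5DD in MDA-MB-231, but only from 14.6 and 16.9 RPKM to 21.3 and 23.8 RPKM in Hs-578T. The change in MAP2K5 was larger in MDA-MB-231 by 3.26 log2 units (SE 0.14, limma adjusted p = 4.84e-08).

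Depth lay between 20248162 and 27791195 mapped reads a library, recovered from the steps of the RPKM values. The 5 mesenchymal markers chosen for the cell type check (VIM, CD44, FN1, CAV1, AXL) summed to between 3891 and 9492 RPKM in all libraries. The 7 luminal epithelial markers (ESR1, PGR, GATA3, FOXA1, EPCAM, KRT8, KRT19) summed to between 39.4 and 1955 RPKM, mostly KRT8. KRT19 lay between 236 and 776 RPKM in MDA-MB-231 and at or below 0.395 RPKM in Hs-578T. The oestrogen receptor gene ESR1 stayed at or below 0.12 RPKM and the progesterone receptor gene PGR at or below 0.348 RPKM. The leukocyte markers summed to between 0.419 and 2.21 RPKM, mostly CD14 (up to 2.15 RPKM), with PTPRC at or below 0.396 RPKM and CD3E at or below 0.0247 RPKM. The endothelial markers summed to between 0.3 and 6.52 RPKM, mostly PECAM1, which lay between 5.39 and 6.48 RPKM in Hs-578T parental cells and those labelled ERK5-ko, while CDH5 stayed at or below 0.0259 RPKM.

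In MDA-MB-231, the neighbouring ligand genes EREG and AREG and the receptor gene ERBB3 rose in the libraries labelled ERK5-ko and fell in those with MEK5DD, while TGFA fell with MEK5DD and EGFR passed the test in neither comparison. Of the 8 members, 3 rose and 0 fell in the libraries labelled ERK5-ko, where 6.91% of the 13737 tested genes rose and 10.4% fell (17.3% in either direction). With MEK5DD, 5 members fell and 0 rose, where 23.8% of tested genes fell and 17.5% rose (41.3% in either direction). The median log2 difference of the members was 0.07 for ERK5-ko (all tested genes -0.04) and -0.66 for MEK5DD (all tested genes -0.01). The split over all genes depended on the scaling: for ERK5-ko it was 949 higher and 1430 lower as reported, 1272 and 1119 with median-ratio scaling and 1247 and 1215 with quantile normalization, and for MEK5DD 2410 and 3263 as reported and 3162 and 2812 with quantile normalization. Both comparisons use the same parental libraries. Differences are on the log2(RPKM + 0.5) scale, from limma over all 12 libraries as 6 groups, with Benjamini-Hochberg adjustment over all tested genes and a threshold of 0.05. In bulk RNA, fewer expressing cells and less RNA per cell cannot be told apart.

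**Figure D1:**
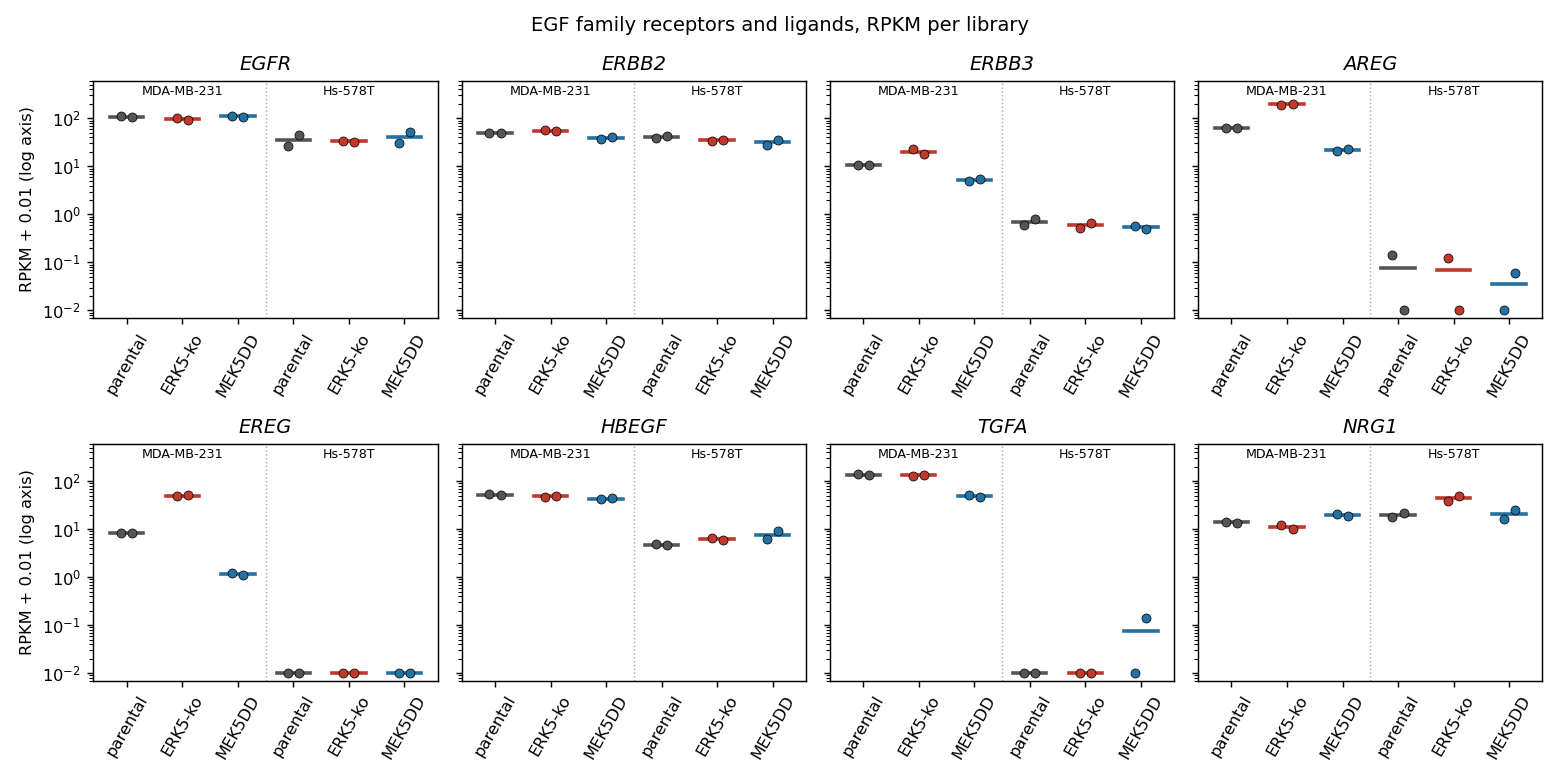
RPKM of the 8 members in each of the 12 libraries (points, log axis, 0.01 added so that zeros can be drawn), with the group mean as a bar. EREG and AREG separate the 3 MDA-MB-231 groups without overlap, from 1.08 to 50.8 RPKM for EREG, and lie at or near 0 in every Hs-578T library.

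EREG codes for epiregulin, a ligand of EGFR and ERBB4. Its level was 8.14 and 8.42 RPKM in MDA-MB-231 parental cells, 49.2 and 50.8 RPKM in those labelled ERK5-ko, and 1.19 and 1.08 RPKM in those with MEK5DD. The 3 groups did not overlap, and both libraries of a group lay close to each other. The rise with ERK5-ko was 6.03-fold in mean RPKM (log2 difference 2.52, SE 0.10, limma adjusted p = 6.75e-08). With MEK5DD the mean was 7.29-fold lower (log2 difference -2.43, SE 0.10, limma adjusted p = 7.09e-09). The lowest of these levels rested on 62 and 65 reads.

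AREG codes for amphiregulin, a ligand of EGFR alone. It was read at 64.0 and 63.9 RPKM in MDA-MB-231 parental cells, at 194 and 202 RPKM in those labelled ERK5-ko, and at 21.3 and 22.9 RPKM in those with MEK5DD. As with EREG, the libraries labelled ERK5-ko were the highest and those with MEK5DD the lowest, with no overlap. The mean rose 3.10-fold with ERK5-ko (log2 difference 1.62, SE 0.14, limma adjusted p = 2.64e-05). It was 2.90-fold lower with MEK5DD (log2 difference -1.51, SE 0.14, limma adjusted p = 5.32e-06).

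AREG and EREG lie next to each other on chromosome 4 (GRCh38), both on the plus strand, EREG at chr4:74365143-74388751 and AREG at chr4:74445134-74455009. The gap between them is 56383 bases and holds 0 of the genes listed in the table. Because these neighbours moved furthest of the members, the 250 bases before the RefSeq start of each are shown (RefSeq, GRCh38.p14), with a TATA box (TATAAA) and, for AREG, a cyclic AMP response element (CRE, TGACGTCA) in capitals.
AREG, chr4:74444886-74445135, plus strand: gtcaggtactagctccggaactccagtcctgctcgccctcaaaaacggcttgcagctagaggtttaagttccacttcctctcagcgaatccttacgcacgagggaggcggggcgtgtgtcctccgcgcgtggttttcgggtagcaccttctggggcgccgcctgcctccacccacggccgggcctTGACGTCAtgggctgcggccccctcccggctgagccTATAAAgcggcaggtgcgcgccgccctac
EREG, chr4:74364895-74365144, plus strand: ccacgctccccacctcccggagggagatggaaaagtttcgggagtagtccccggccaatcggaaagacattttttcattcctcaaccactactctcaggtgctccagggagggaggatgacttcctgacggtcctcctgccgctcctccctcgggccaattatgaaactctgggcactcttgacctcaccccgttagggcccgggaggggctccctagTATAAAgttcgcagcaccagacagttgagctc

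Both windows held TATAAA close to the start, from base -29 of AREG and from base -32 of EREG, counted back from the RefSeq start. Over all 35116 RefSeq windows of this length, 10.7% held TATAAA on either strand. The CRE began at base -65 of AREG, and 1.65% of all windows held one. Neither window held the AP-1 letters TGANTCA or the GAS letters TTCNNNGAA, each found in 6.57% of all windows. The 4 motifs were searched on both strands, and the AP-1 and CRE letters both begin with TGA and end with TCA. Of the 8 members, 6 had a RefSeq window (EGFR, ERBB2, AREG, EREG, HBEGF, TGFA). The windows of HBEGF and TGFA held none of the 4 motifs, that of ERBB2 held AP-1 letters from base -222, and EGFR had 2 windows, one with AP-1 letters from bases -232 and -136 and TATAAA from bases -146 and -36, and one with none of the 4. These are matches of letters and not measured binding sites.

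Within 1 Mb on either side of the cluster from EPGN to BTC, 14 protein-coding genes outside the family were tested. Of these, 2 rose and 0 fell with ERK5-ko in MDA-MB-231, where 17.3% of all tested genes passed, and 5 rose and 1 fell with MEK5DD, where 41.3% passed. RASSF6 (0.67) and PARM1 (0.53) were those that rose with ERK5-ko. With MEK5DD PARM1 rose by 1.39 and C4orf26 fell by 1.20, differences of a size near that of AREG. The chemokine genes CXCL1, CXCL2, CXCL3 and CXCL8 were among those that rose with MEK5DD, by log2 differences of 0.97, 0.63, 1.32 and 0.93. MTHFD2L, upstream of EPGN, gave -0.01 with ERK5-ko and 0.02 with MEK5DD. BTC, the ligand gene 289750 bases beyond AREG on the opposite strand, rose with ERK5-ko (log2 difference 0.84, SE 0.18, limma adjusted p = 0.00916) and fell with MEK5DD (-0.62, SE 0.18, limma adjusted p = 0.0181). BTC codes for betacellulin, a further ligand of EGFR, and was read at 2.1 and 2.18 RPKM in parental cells, 4.11 and 4.37 RPKM with ERK5-ko and 1.503 and 0.967 RPKM with MEK5DD. Its call with ERK5-ko was lost without either parental library or without ERK5-ko replicate 2 (limma adjusted p up to 0.0684). Its call with MEK5DD was lost without either parental library or without MEK5DD replicate 2, where the difference was -0.40. This window was chosen after the values were seen.

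**Figure D2:**
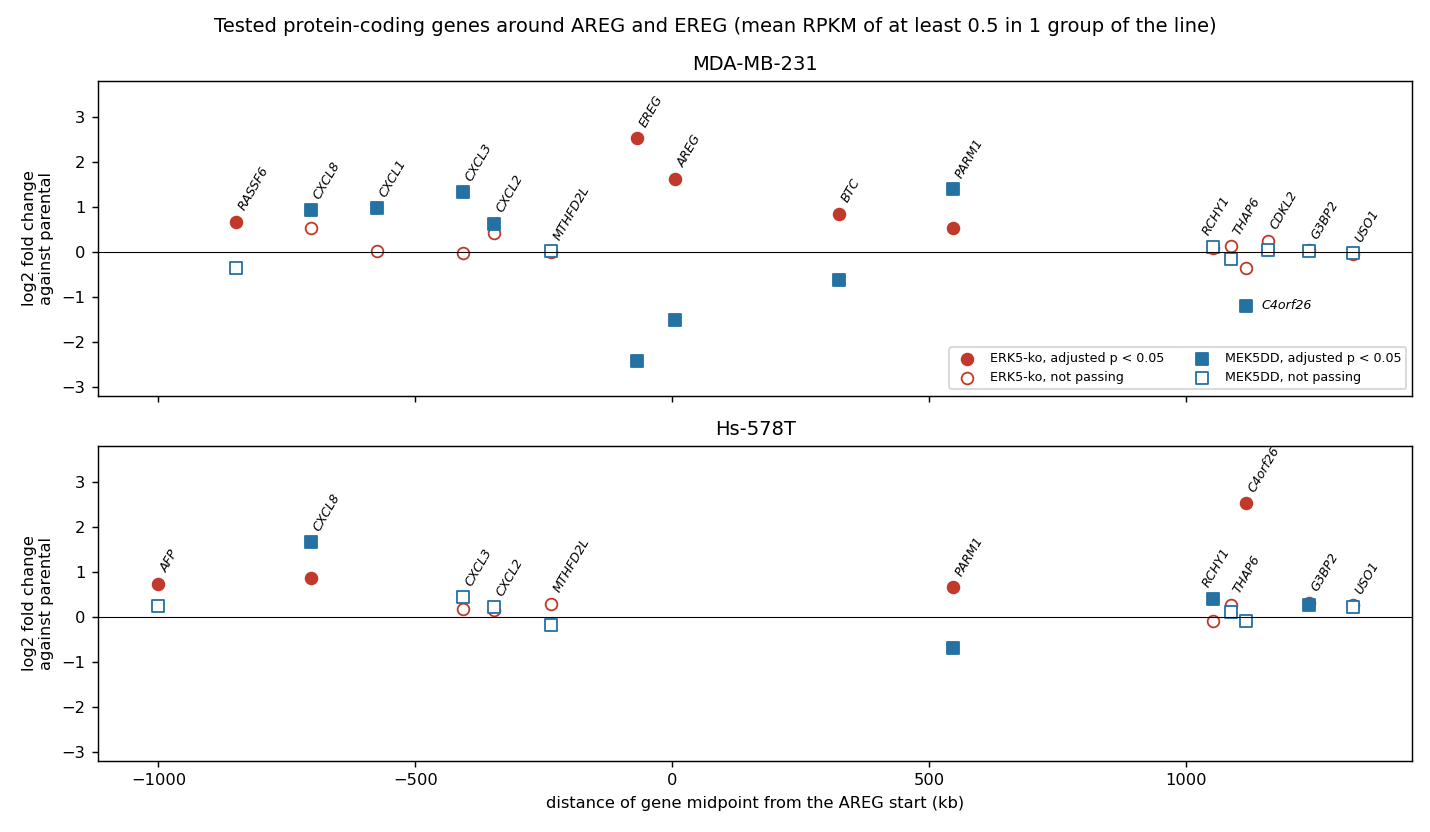
Log2 fold change against parental cells (vertical axis) of tested protein-coding genes by the distance of their midpoint from the AREG start in kb (horizontal axis), for ERK5-ko (circles) and MEK5DD (squares); filled symbols have an adjusted p under 0.05, and genes with a mean under 0.5 RPKM in all 3 groups of a line are not drawn. In MDA-MB-231, EREG at 2.52 and -2.43 and AREG at 1.62 and -1.51 have opposite signs with ERK5-ko and MEK5DD, while PARM1 (0.53 and 1.39) is above 0 with both, C4orf26 is at -1.20 with MEK5DD, and MTHFD2L lies near 0.

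TGFA, the gene of transforming growth factor alpha (chr2:70447280-70554193, minus strand), fell with MEK5DD in MDA-MB-231. Its level was 139 and 135 RPKM in parental cells, 129 and 136 RPKM in those labelled ERK5-ko, and 52.2 and 46.8 RPKM in those with MEK5DD. Parental libraries and those labelled ERK5-ko overlapped (log2 difference -0.05, 95% interval -0.31 to 0.22, limma adjusted p = 0.85). With MEK5DD the mean was 2.77-fold lower (log2 difference -1.46, SE 0.12, limma adjusted p = 2.36e-06).

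HBEGF (chr5:140332843-140346631, minus strand), which codes for heparin-binding EGF, gave 52.9 and 51.5 RPKM in MDA-MB-231 parental cells, 46.7 and 49.5 RPKM with ERK5-ko, and 43.3 and 43.5 RPKM with MEK5DD. The groups did not overlap, but neither difference passed the test (-0.12, 95% interval -0.41 to 0.17, and -0.27, 95% interval -0.55 to 0.02). The decrease with MEK5DD passed in the fit on the compared groups alone (limma adjusted p = 0.0053) and without either Hs-578T MEK5DD library.

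The makeup of the EGFR ligands in MDA-MB-231 shifted accordingly. Summed over AREG, EREG, TGFA, HBEGF, BTC, EGF and EPGN, the level was 269 and 263 RPKM in parental cells, 425 and 445 RPKM in those labelled ERK5-ko and 121 and 116 RPKM in those with MEK5DD. AREG made up 23.8% and 24.3% of this sum in parental cells, 45.6% and 45.5% with ERK5-ko and 17.6% and 19.7% with MEK5DD. TGFA made up 51.8% and 51.2% in parental cells, 30.3% and 30.7% with ERK5-ko and 43.1% and 40.3% with MEK5DD. By RPKM, AREG had the largest share in the libraries labelled ERK5-ko and TGFA in the others of this line, where AREG came above TGFA once levels were scaled to the longest transcript. With MEK5DD, HBEGF (25.3) stood above both AREG (17.5) and TGFA (12.9) on that scale. The ratio of AREG to EREG was 7.86 and 7.58 in parental cells, 3.94 and 3.98 with ERK5-ko, and 17.9 and 21.1 with MEK5DD, so EREG moved further than AREG in both directions. The sum was chosen after the values were seen and is given without a test.

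**Figure D3:**
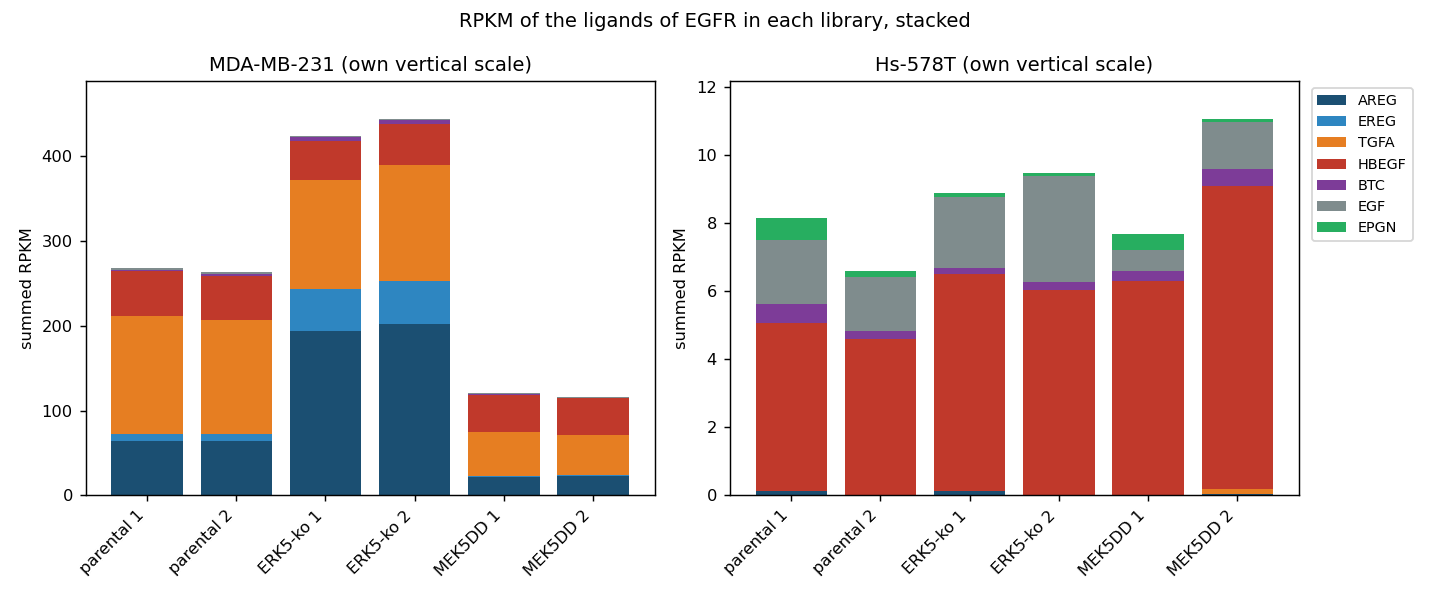
Stacked RPKM of the 7 EGFR ligands in each library (bars from 0; the lines have their own vertical scales). The MDA-MB-231 libraries labelled ERK5-ko reach 425 and 445 RPKM and those with MEK5DD 121 and 116 RPKM, while the Hs-578T libraries lie between 6.59 and 11.1 RPKM and consist mostly of HBEGF.

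Levels of different genes depend on the gene length behind the RPKM. Of 11070 protein-coding genes, 89.6% had a length within 5% of the mean length of their transcripts (GENCODE 29), and 6.85% one within 5% of their longest transcript. By RPKM, TGFA and EGFR were the highest members in MDA-MB-231 parental cells at 137 ± 3.07 (SD, n = 2) and 108 ± 3.05 RPKM. AREG was the highest with ERK5-ko at 198 ± 5.95 RPKM, and EGFR with MEK5DD at 110 ± 2.46 RPKM. Rescaled to the longest transcript, a scale chosen after the values were seen, AREG came first in parental cells at 50.6 and TGFA second at 35.7. AREG remained first with ERK5-ko on that scale (157), and EGFR with MEK5DD (31.2). Neighbours in the order by RPKM did not overlap in parental and MEK5DD cells of this line, and with ERK5-ko only EREG and HBEGF overlapped.

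Among the receptors, EGFR had no difference from parental cells that passed the test in either line. In MDA-MB-231 it was read at 110 and 106 RPKM in parental cells, 103 and 92.9 RPKM with ERK5-ko, and 112 and 109 RPKM with MEK5DD. The log2 difference was -0.14 with ERK5-ko (95% interval -0.68 to 0.39, limma adjusted p = 0.763) and 0.03 with MEK5DD (95% interval -0.50 to 0.57, limma adjusted p = 0.942). Changes within these intervals are not excluded here. The intervals rest on a spread pooled over all 6 groups, including those of Hs-578T. In Hs-578T, EGFR gave 26 and 46.1 RPKM in the parental libraries, 34.4 and 32.4 RPKM with ERK5-ko and 30.9 and 51.4 RPKM with MEK5DD. The parental and MEK5DD libraries of that line were far apart within their groups, and all 3 groups overlapped. EGFR lies at chr7:55019021-55256620 (plus strand) and overlaps a processed pseudogene on the same strand by 1435 bases.

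ERBB2, the receptor known as HER2, fell slightly with MEK5DD in both lines. In MDA-MB-231 it gave 49.2 and 49.2 RPKM in parental cells, 56.8 and 55.0 RPKM with ERK5-ko and 36.9 and 40.8 RPKM with MEK5DD. The decrease with MEK5DD passed the test (log2 difference -0.34, SE 0.11, limma adjusted p = 0.034), but it no longer passed without any 1 of the 4 libraries compared (limma adjusted p between 0.0603 and 0.21). In Hs-578T, ERBB2 was 38.9 and 43.8 RPKM in parental cells, 33.3 and 36.0 RPKM with ERK5-ko and 27.8 and 35.2 RPKM with MEK5DD. There the decrease with MEK5DD (-0.40, SE 0.11, limma adjusted p = 0.0284) was lost under median-ratio scaling (-0.30, limma adjusted p = 0.0623) and quantile normalization (-0.29), without parental replicate 2 (-0.31) or MEK5DD replicate 1 (-0.23), and in the fit on the compared groups alone. The gene lies at chr17:39687914-39730426 and overlaps PGAP3 by 8884 bases and MIEN1 by 1931 bases on the opposite strand. Whether reads were counted by strand is not given in the sources used here, so reads of these partners may be included.

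ERBB3, the receptor of neuregulins, moved as AREG and EREG did in MDA-MB-231. Parental libraries gave 10.6 and 10.6 RPKM, those labelled ERK5-ko 22.9 and 17.9 RPKM, and those with MEK5DD 4.89 and 5.45 RPKM. The groups did not overlap, and the 2 libraries labelled ERK5-ko were further apart than those of the other groups. The mean was 1.92-fold higher with ERK5-ko (log2 difference 0.90, SE 0.14, limma adjusted p = 0.00159) and 2.05-fold lower with MEK5DD (-0.97, SE 0.14, limma adjusted p = 0.000223). The ratio of ERBB3 to ERBB2 was 0.216 and 0.215 in parental cells, 0.403 and 0.325 with ERK5-ko and 0.132 and 0.134 with MEK5DD. ERBB3 lies at chr12:56079857-56103505 (plus strand), and 2175 of its bases are shared with another protein-coding gene on the same strand, RP11-603J24.9, so its level is uncertain by the reads of that gene.

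Some epithelial genes moved in the same libraries. The 7 luminal markers chosen for the cell type check summed to between 1200 and 1277 RPKM in MDA-MB-231 parental cells, 1923 and 1955 RPKM with ERK5-ko and 846 and 894 RPKM with MEK5DD. Of the 5 that could be tested, EPCAM, KRT8 and KRT19 rose with ERK5-ko (log2 differences 0.39, 0.69 and 0.60). Their limma adjusted p lay between 0.000724 and 0.0292, and 6.91% of all tested genes rose. EPCAM and KRT19 fell with MEK5DD (-1.30 and -1.04), beside 23.8% of all tested genes, and KRT8 did not pass (-0.21). GATA3 passed with neither label (0.19 with ERK5-ko and -0.08 with MEK5DD). ESR1, PGR and FOXA1 were at or below 0.12 RPKM in all these libraries. Of the 5 mesenchymal markers, VIM, CD44 and FN1 rose with MEK5DD (1.04, 0.56 and 0.66), beside 17.5% of all tested genes. AXL (0.27) and CAV1 (-0.28) did not pass there. With ERK5-ko CAV1 rose (0.48) and none of the 5 fell (VIM -0.05, AXL -0.01, FN1 -0.17, CD44 0.25), beside 6.91% and 10.4% of all tested genes. The part of these marker genes in the values of ERBB3, AREG and EREG was not tested.

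NRG1, the neuregulin gene (chr8:31639386-32767959, plus strand, with the intronic transcript NRG1-IT1 on the same strand), passed the test against parental cells only in Hs-578T. Its level in MDA-MB-231 was 14.2 and 13.4 RPKM in parental cells, 12.3 and 9.83 RPKM with ERK5-ko and 20.4 and 18.9 RPKM with MEK5DD. Against parental cells neither difference passed (-0.31, SE 0.19, limma adjusted p = 0.289, and 0.49, SE 0.19, limma adjusted p = 0.0524). The difference with MEK5DD passed under median-ratio scaling (0.53, limma adjusted p = 0.0312), quantile normalization, the compared groups alone, the replicate block and voom, and without any 1 of the Hs-578T parental or MEK5DD libraries. In Hs-578T, NRG1 gave 17.7 and 21.4 RPKM in parental cells, 38.7 and 49.3 RPKM with ERK5-ko and 16.5 and 24.9 RPKM with MEK5DD. The libraries labelled ERK5-ko lay above all others of that line, and those with MEK5DD overlapped parental cells. The mean rose 2.25-fold with ERK5-ko (log2 difference 1.15, SE 0.19, limma adjusted p = 0.000604).

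In Hs-578T, NRG1 was the only one of the 8 members to pass the test with ERK5-ko, where 39.4% of all tested genes passed, 19.7% in each direction. AREG, EREG and TGFA had at most 3 reads in any library of this line and could not pass with either label. The replicate block also called ERBB2 and HBEGF with ERK5-ko. With MEK5DD, HBEGF rose and ERBB2 fell, where 6.44% of tested genes rose and 17.0% fell (23.4% in either direction). That split of 884 higher and 2329 lower became 1297 and 1615 with median-ratio scaling. HBEGF went from 4.91 and 4.58 RPKM in parental cells to 6.29 and 8.91 RPKM with MEK5DD (log2 difference 0.61, SE 0.13, limma adjusted p = 0.00716), and it stood at 6.39 and 6.03 RPKM with ERK5-ko (0.35, SE 0.13, limma adjusted p = 0.0508). Without MEK5DD replicate 2 the HBEGF difference with MEK5DD was 0.37, and the fit on the compared groups alone gave a limma adjusted p of 0.235. ERBB3 lay between 0.478 and 0.798 RPKM in all 6 libraries of the line, on 16 to 27 reads, with no difference past the threshold (-0.13 and -0.21, SE 0.14 for both).

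AREG, EREG and TGFA were not detectable or close to it in Hs-578T. EREG had 0 reads in all 6 libraries, AREG had at most 3 reads in a library, and TGFA had 0 reads in 5 libraries and 3 in MEK5DD replicate 2. A count of 0 allows up to 3 reads a library, and such limits cover counting error only. Against that limit, EREG was at least 130-fold higher in MDA-MB-231 than in Hs-578T parental cells, and TGFA at least 1114-fold higher. Summed over both libraries, AREG had 3297 reads in parental cells of MDA-MB-231 against 3 in those of Hs-578T, a ratio per RPKM of 912 (95% counting interval 312 to 4425). No fold between the Hs-578T groups is given for these genes. They passed the filter on low values only through MDA-MB-231, so a difference between the lines was fixed by the filter.

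Between parental cells, EGFR, ERBB3 and HBEGF had the higher level in MDA-MB-231, beside the 3 ligands whose direction the filter fixed, and NRG1 had it in Hs-578T. Of all tested genes, 46.0% were higher in the former line and 31.3% in the latter (77.4% in either direction), a split of 6324 and 4305 that became 5105 and 5327 with median-ratio scaling. The median of all tested genes was shifted by 0.19 log2 units toward MDA-MB-231, and the values below are given without subtracting it. Whether this shift stems from the scaling was not tested. EGFR was 2.99-fold higher in MDA-MB-231 (log2 difference 1.62, SE 0.24, limma adjusted p = 7.54e-05), ERBB3 15.3-fold (3.22, SE 0.14, limma adjusted p = 1.47e-09) and HBEGF 11-fold (3.33, SE 0.13, limma adjusted p = 5e-10). NRG1 was 1.42-fold higher in Hs-578T (log2 difference -0.48, SE 0.19, limma adjusted p = 0.0329), a call lost without any filter on low values (limma adjusted p = 0.0561), without either MDA-MB-231 parental library or without Hs-578T parental replicate 2 (-0.35). ERBB2 did not pass (0.25, 95% interval 0.00 to 0.50, limma adjusted p = 0.0642). By RPKM, ERBB2 and EGFR headed the order in Hs-578T parental cells and overlapped each other, followed by NRG1, HBEGF and ERBB3, and with ERK5-ko NRG1 came first.

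**Figure D4:**
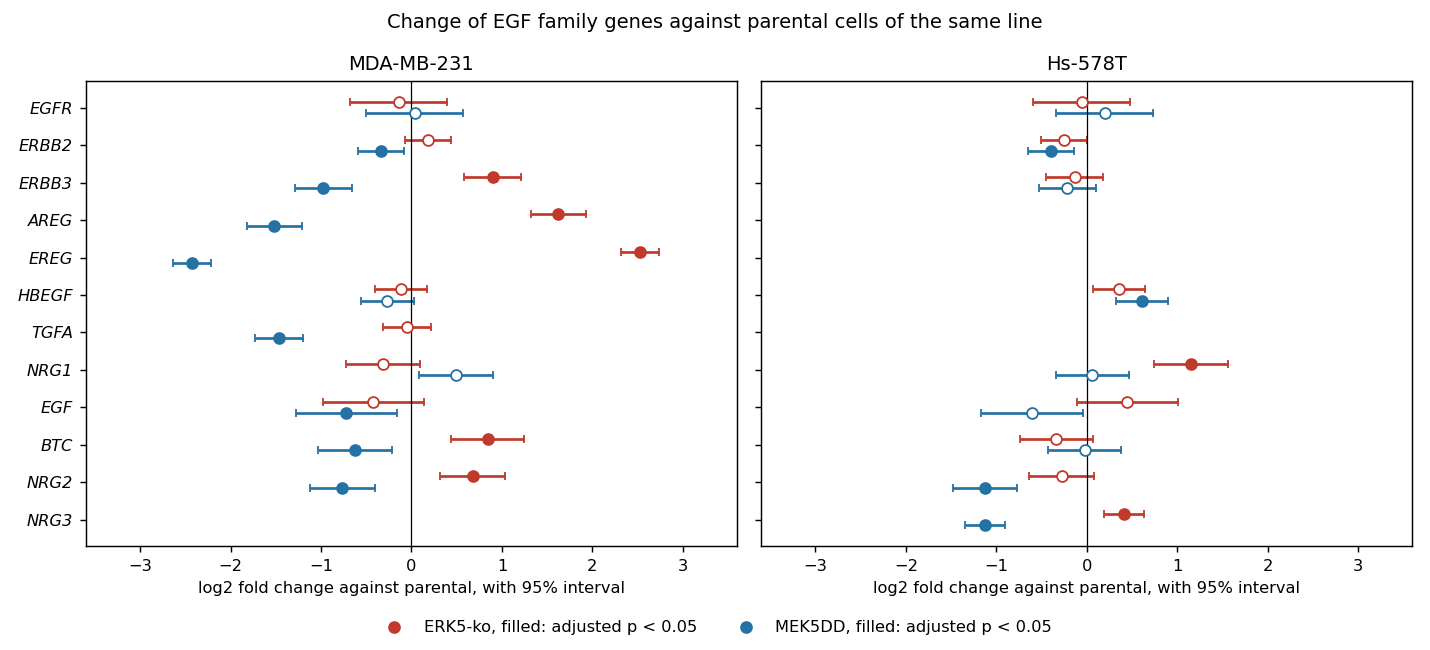
Log2 fold change against parental cells of the same line with its 95% interval (horizontal axis) for the members and the related genes that were tested (vertical axis), in red for ERK5-ko and blue for MEK5DD, filled where the adjusted p was under 0.05; genes at the limit of detection in both groups are left out. In MDA-MB-231, ERBB3, AREG, EREG, BTC and NRG2 have red points above 0 and blue points below it, and in Hs-578T NRG1 stands highest at 1.15.

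The difference between ERK5-ko and MEK5DD is free of the parental values, which enter its test only through the pooled spread. In MDA-MB-231, 5 members were higher and NRG1 was lower in the libraries labelled ERK5-ko, where 27.1% of tested genes were higher and 27.9% lower (55.0% in either direction). The log2 difference was 4.95 for EREG (44.0-fold in mean RPKM), 3.14 for AREG (8.97-fold), 1.87 for ERBB3 (3.94-fold), 1.41 for TGFA (2.68-fold) and 0.52 for ERBB2 (1.44-fold), with limma adjusted p between 4.11e-11 and 0.00233. For NRG1 it was -0.81 (SE 0.19, limma adjusted p = 0.0031). The labels of these MDA-MB-231 libraries carry p7 and p8 with ERK5-ko and p10 and p11 with MEK5DD. In Hs-578T, where both derived lines carry the labels p8 and p9, NRG1 alone passed, higher with ERK5-ko by 1.09 (SE 0.19, limma adjusted p = 0.000596), where 30.7% of tested genes were higher and 19.2% lower (50.0% in either direction). The split of 4224 higher and 2642 lower became 3222 and 3424 with median-ratio scaling. AREG, EREG and TGFA were at the limit of detection in both of these Hs-578T groups and could not pass.

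Whether the lines differed in their response was tested as a difference of differences. For ERK5-ko, 4 members passed, where 18.3% of tested genes had a positive difference (MDA-MB-231 minus Hs-578T) and 21.5% a negative one, 39.8% in all. The difference was positive for EREG (2.52), AREG (1.64) and ERBB3 (1.03, SE 0.20, limma adjusted p = 0.00214) and negative for NRG1 (-1.46, SE 0.26, limma adjusted p = 0.00126). For MEK5DD, 5 members passed, all with a negative difference (18.2% of tested genes, and 39.6% in either direction): EREG (-2.43), TGFA (-1.63), AREG (-1.41), HBEGF (-0.87, SE 0.19, limma adjusted p = 0.0033) and ERBB3 (-0.76, SE 0.20, limma adjusted p = 0.0117). The ERBB3 difference no longer passed with a pseudocount of 0.1, with voom weights on recovered reads (limma adjusted p = 0.215) or without MDA-MB-231 MEK5DD replicate 1 (limma adjusted p = 0.052). For EREG, AREG and TGFA these values are the MDA-MB-231 change set against a line at the limit of detection, which leaves no room for a decrease there. Their passing largely restates the MDA-MB-231 change, and the counts of 4 and 5 include them where they passed. ERBB3 with either label, NRG1 with ERK5-ko and HBEGF with MEK5DD were detected in both lines. The smaller rise of MAP2K5 in Hs-578T with MEK5DD stands beside these values, and its part in them was not tested.

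The genes that code for the remaining family members were mostly low. Of ERBB4, EGF, BTC, EPGN, NRG2, NRG3 and NRG4, 4 could be tested. In MDA-MB-231, BTC and NRG2 rose with ERK5-ko, and EGF, BTC and NRG2 fell with MEK5DD. NRG2, a second neuregulin gene, was read at 1.07 and 0.667 RPKM in parental cells, 1.75 and 1.58 RPKM with ERK5-ko and 0.347 and 0.251 RPKM with MEK5DD (log2 differences 0.67 and -0.76, SE 0.16 for both). The rise was lost without parental replicate 2 (0.46) or without either library labelled ERK5-ko (limma adjusted p up to 0.154). EGF, the gene of the founding ligand, fell by 0.72 with MEK5DD (SE 0.25, limma adjusted p = 0.0404), a call lost with a pseudocount of 0.1, no filter on low values, quantile normalization or all gene types, and without either parental library or MEK5DD replicate 2 (limma adjusted p up to 0.263). In Hs-578T, NRG3 was 0.728 and 0.558 RPKM in parental cells, 1.04 and 0.992 RPKM with ERK5-ko (log2 difference 0.41, limma adjusted p = 0.00775, lost without parental replicate 2 at 0.0604) and 0.0228 and 0.0225 RPKM with MEK5DD (-1.12, limma adjusted p = 2.97e-05). NRG2 fell there with MEK5DD from 0.872 and 0.873 RPKM to 0.0458 and 0.226 RPKM (-1.12, SE 0.16, limma adjusted p = 0.000695). This NRG2 call rested on 2 and 10 reads with MEK5DD and was not kept under every alternative. Its difference ran from -2.92 to -0.73 over the other settings with all libraries. ERBB4, the fourth receptor, stayed at or below 0.0527 RPKM, and NRG4 at or below 0.115 RPKM. EPGN had 0 reads in all 6 libraries of MDA-MB-231 and lay between 0.0767 and 0.651 RPKM in Hs-578T.

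Genes that release the ligands, carry the receptor signal or limit it were taken from 3 lists of 33 genes in all, each of which could be tested. In MDA-MB-231, 2 of the 33 rose and 3 fell with ERK5-ko, and 4 rose and 8 fell with MEK5DD. For Hs-578T the counts were 6 and 6 with ERK5-ko and 2 and 6 with MEK5DD. All 4 counts lie near the share of all tested genes that passed, which was 17.3%, 41.3%, 39.4% and 23.4% in the same order, so they say nothing particular about these lists. They also moved with single libraries. For ERK5-ko in MDA-MB-231 the 5 genes became 2 without parental replicate 2, 3 without parental replicate 1 or ERK5-ko replicate 2, and 9 without either Hs-578T MEK5DD library. For Hs-578T the 12 genes with ERK5-ko became 7 and 6 without ERK5-ko replicate 1 and 2, and the 8 with MEK5DD became 5 without parental replicate 2, 12 without MEK5DD replicate 2 and 0 in the fit on the compared groups alone. The median log2 difference of the 33 genes lay between -0.13 and -0.04 in the 4 comparisons.

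Of the 9 genes of ligand release, 3 fell and 0 rose with ERK5-ko in MDA-MB-231, where 10.4% of all tested genes fell and 6.91% rose. ADAM12 and ADAM19, metalloproteases, fell by 1.32 and 1.30 log2 units, ADAM12 from 0.723 to 0.873 RPKM to at most 0.0393 RPKM, and RHBDF1, which codes for an iRhom that escorts ADAM17, fell by 0.55. With MEK5DD in that line, 2 rose and 3 fell (17.5% and 23.8% of all tested genes). Those that rose were ADAM19 (0.45) and RHBDF1, the latter from 20.6 to 21.8 RPKM in parental cells to 33.7 to 37.2 RPKM. Those that fell were RHBDL2, a membrane protease (-1.66), RHBDF2, the second iRhom (-1.09), and ADAM10 (-0.96). ADAM10 went from 200.2 to 219 RPKM in parental cells to 107 to 108 RPKM. In Hs-578T, 2 rose and 3 fell with ERK5-ko (19.7% of all tested genes each way), among them RHBDF2 (-1.08), RHBDF1 (-0.88) and ADAM19 (0.58). With MEK5DD 0 rose and 3 fell there (6.44% and 17.0% of all tested genes), which were RHBDF2 (-1.07), ADAM17 (-0.52) and ADAM10 (-0.46). RHBDF2 thus fell with MEK5DD in both lines, in Hs-578T not in the fit on the compared groups alone (limma adjusted p = 0.0661), where ADAM17 was lost too. The ADAM10 difference in Hs-578T was lost with median-ratio scaling (-0.37) and when most single libraries were left out, and was -0.26 without MEK5DD replicate 1. The ADAM12 difference depended on the pseudocount (-0.82 with 1 and -2.92 with 0.1). RHBDF1 in MDA-MB-231 was lost without parental replicate 2, and ADAM19 in Hs-578T without parental replicate 1 or either library labelled ERK5-ko.

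Of the 14 adaptor and signalling genes, 1 rose and 0 fell with ERK5-ko in MDA-MB-231, which was GRB7 (0.43), an adaptor that binds ERBB receptors, beside 6.91% and 10.4% of all tested genes. With MEK5DD, 2 rose and 3 fell in that line (17.5% and 23.8% of all tested genes). GRB7 fell by 1.52, from 4.41 to 4.80 RPKM to 1.16 to 1.41 RPKM, while the docking protein gene GAB2 rose by 1.30 and PIK3R1, a regulatory subunit of PI3K, by 1.05. In Hs-578T, GAB2 rose with ERK5-ko (0.70) and with MEK5DD (0.63). PTPN11, the gene of the phosphatase SHP2, rose with ERK5-ko (0.74) and STAT3 fell (-0.36), 2 of the 14 rising and 2 falling (19.7% of all tested genes each way), and with MEK5DD GRB2 fell (-0.33), 1 rising and 1 falling (6.44% and 17.0% of all tested genes). The rise of GRB7 was lost without any 1 of the 4 libraries compared (limma adjusted p up to 0.192). In Hs-578T, PTPN11 was lost without parental replicate 1 (0.51) or ERK5-ko replicate 2 (0.58), STAT3 without parental replicate 2 (-0.24) or either library labelled ERK5-ko, and GRB2 without MEK5DD replicate 1 (-0.19) or either parental library. GAB2 with MEK5DD in Hs-578T did not pass in the fit on the compared groups alone.

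Of the 10 genes that limit receptor signalling, 1 rose and 0 fell with ERK5-ko in MDA-MB-231, and 0 rose and 2 fell with MEK5DD, beside 6.91% and 10.4%, and 17.5% and 23.8%, of all tested genes. LRIG3 rose with ERK5-ko (0.54), and PTPN12 (-0.45) and CBLB (-0.38) fell with MEK5DD. In Hs-578T, 2 rose and 1 fell with ERK5-ko (19.7% of all tested genes each way): CBL, the ubiquitin ligase that marks EGFR for degradation (0.80), ERRFI1, an inhibitor of the EGFR kinase (0.62), and LRIG3 (-0.56). With MEK5DD, LRIG3 (-0.55) and ERRFI1 (-0.39) fell and RNF41 rose (0.27), beside 17.0% and 6.44% of all tested genes. CBL was read at 1.28 and 2.5 RPKM in parental cells of that line and at 3.49 and 3.56 RPKM with ERK5-ko. Its difference was 0.42 and no longer passed without parental replicate 1, nor did it pass without either library labelled ERK5-ko. In MDA-MB-231, LRIG3 was lost without either parental library or ERK5-ko replicate 2, PTPN12 without parental replicate 1 or MEK5DD replicate 2, and CBLB without any 1 of the 4 libraries compared and with quantile normalization (-0.20). With MEK5DD in Hs-578T none of the 3 passed in the fit on the compared groups alone, ERRFI1 was lost without parental replicate 1, and RNF41 when most single libraries were left out.

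**Figure D5:**
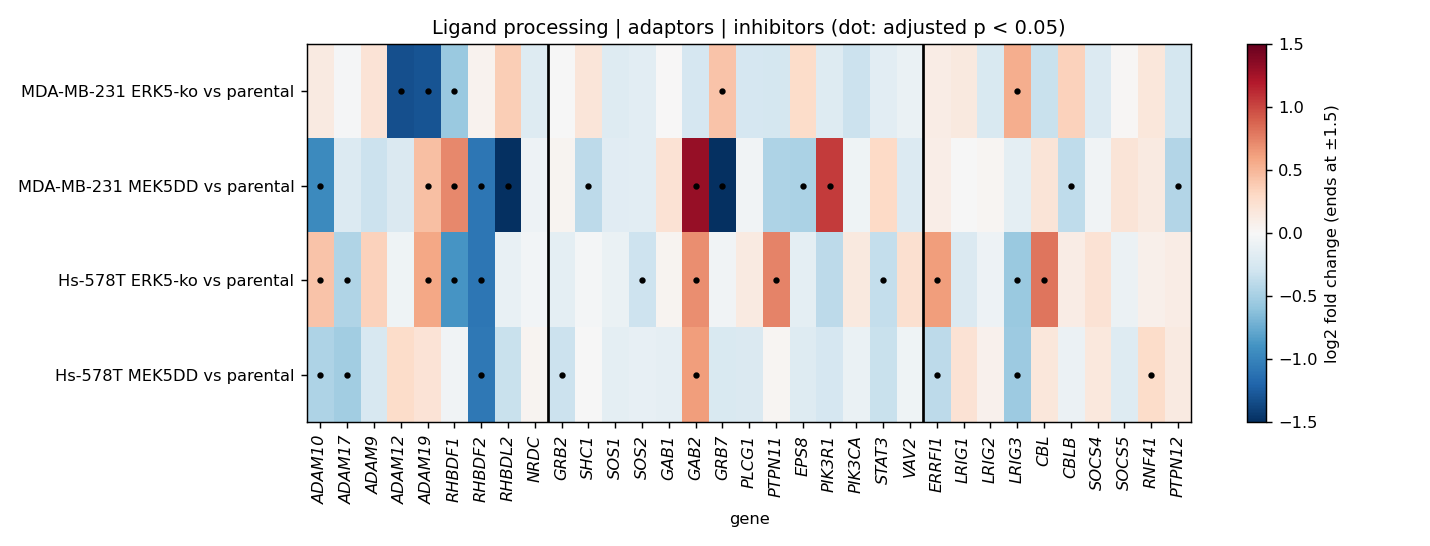
Log2 fold change against parental cells (colour, ends at 1.5 in either direction) of the 33 genes of ligand release, adaptors and inhibitors, from left to right with black lines between the lists, for each line and label (rows); a dot marks an adjusted p under 0.05. RHBDF2 is marked and blue in both rows of MEK5DD and in the Hs-578T row of ERK5-ko. GRB7 is red with ERK5-ko (0.43) and blue with MEK5DD (-1.52) in MDA-MB-231.

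The genes whose log2(RPKM + 0.5) ran most like that of each member over the 12 libraries were ranked among 12396 genes. These correlations are given as a description, since all points share the difference between the 2 lines, and they say nothing of shared function or control. Among the 3 nearest to AREG were MID2 and PTPN6 (r = 0.998 for both). EREG ran most like CNGA1 (0.997), TMEM45B (0.994) and CLDN2 (0.993), and among the 3 nearest to ERBB3 were NIPAL1 (0.997) and SNAP91 (0.995). TGFA was nearest to EHF, SLFN13 and RGAG4 (0.999 each), and HBEGF to STX3 (0.998), DUSP5 (0.997) and RBPJ (0.995). EGFR was nearest to WDR26 (0.994), NUMA1 (0.993) and MEF2D (0.988), ERBB2 to PICK1 (0.977), KIAA0195 (0.972) and TSPYL1 (0.967), and NRG1 to HSPA13 (0.966), MPRIP (0.964) and MICALL1 (0.961).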

How the data were processed

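RNA was harvested at 70% confluence and made into libraries with a stranded mRNA kit, per the labels. The submitters' processing notes name bcl2fastq, Trimmomatic 0.32, TopHat2 2.1.1, R 3.3.1, DESeq2 1.12.4 and GRCh38, with no role for each. The authors deposited RPKM per gene. The counting tool, its use of strand and the annotation release are not given in the sources used here. Gene coordinates are those of the table.

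RPKM values were not tested as counts. Whole reads were recovered from them (100% of values within 0.001 of a whole number, and 0 of 500 genes with totals set wrong on purpose) and gave the totals per library, 92.0% to 94.5% of which fell on listed genes. Protein-coding genes at 0.5 RPKM or more in at least 2 libraries were kept, 13737 of 17665, and log2(RPKM + 0.5) was fitted with limma 3.58.1 (trend, two-sided, R 4.3.3) as 6 group means over 12 libraries, which leaves 6 residual degrees of freedom, with Benjamini-Hochberg adjustment within each comparison. With 2 libraries against 2, the smallest two-sided p of an exact permutation test is 0.333, so none is used. The script was tested on simulated data. The members, gene lists, comparisons and the rule for named genes (all members and other family genes, MAPK7 and MAP2K5, the 3 largest passing changes of each further list in each comparison with parental cells, and the 3 genes most correlated with each member) were chosen with earlier results of these data known. Some genes that these lists and rules name are not reported here. NRDC was matched by its identifier as NRD1. The alternatives were other pseudocounts, filters, gene types, scalings, the compared groups alone, a replicate block, voom on recovered reads, fold thresholds of 1.5 and 0.5, and leaving out each library. The figures were drawn with matplotlib 3.10.9. RefSeq windows were matched by symbol.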

Additional observations from a re-analysis of the deposited data

Results flagged for a closer look

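Several genes were marked because their change against parental cells differed between MDA-MB-231 and Hs-578T by a test of the difference itself (limma, all 12 libraries, Benjamini-Hochberg adjusted p under 0.05). With 2 libraries a group, no single library could be tested as an outlier.

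With ERK5-ko the difference, MDA-MB-231 minus Hs-578T on the log2 scale, was 2.52 for EREG, 1.64 for AREG, 1.18 for BTC, 1.03 for ERBB3, 0.95 for NRG2 and -1.46 for NRG1. With MEK5DD it was -2.43 for EREG, -1.63 for TGFA, -1.41 for AREG, -0.87 for HBEGF, -0.76 for ERBB3 and 1.125 for NRG3. EREG, AREG and TGFA were at the limit of detection in Hs-578T, and NRG3 in MDA-MB-231, so for these genes the difference is mostly the change in the other line. The few reads at the limit still enter it, as for TGFA with MEK5DD (-1.46 in MDA-MB-231 alone). BTC lay between 0.178 and 0.561 RPKM in Hs-578T, on 8 to 22 reads, which left little room for a decrease there. It passed the filter on low values only through MDA-MB-231. NRG1 is the reverse case, detected in all 12 libraries and higher with ERK5-ko in Hs-578T by 1.15, against -0.31 in MDA-MB-231. HBEGF was also detected throughout, with changes of -0.27 and 0.61 for MEK5DD.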

How the results depend on the processing

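Each line and label was read from 2 libraries, and the knockout of MDA-MB-231 from 1 clone, so clone and genotype cannot be told apart. The calls for AREG, EREG and ERBB3 with ERK5-ko, for AREG, EREG, TGFA and ERBB3 with MEK5DD in MDA-MB-231, and for NRG1 with ERK5-ko in Hs-578T passed under every alternative run, except that ERBB3 with MEK5DD missed the fold threshold of 0.5 on the log2(RPKM + 0.5) scale. Without a library, a group of 1 was assumed to vary like the others. Genes under about 1 RPKM rest on few reads.

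The number of members that passed moved by over 1.5 times as follows. With MEK5DD in MDA-MB-231 it was 3 (5 in the report) with the fold thresholds, which ERBB2 and ERBB3 missed. For ERK5-ko in Hs-578T it was 2 (in place of 1) with a pseudocount of 0.1 and with quantile normalization, 3 with the replicate block, and between 1 and 3 with each library left out. For MEK5DD in Hs-578T it was 1 (in place of 2) with median-ratio scaling, quantile normalization or the fold thresholds, 0 in the fit on the compared groups alone, which called 17 genes higher and 49 lower of all tested with 2736 at an unadjusted p under 0.05, and between 1 and 2 with each library left out. For ERK5-ko against MEK5DD in Hs-578T it was 2 (in place of 1) with median-ratio scaling and quantile normalization, and between 1 and 3 with each library left out. For the line difference with MEK5DD it was 3 (in place of 5) with a pseudocount of 0.1, voom or the fold thresholds. Replicate numbers mark no shared culture in the labels. Same-numbered libraries of a line deviated together, with a correlation of 0.54 between Hs-578T parental and MEK5DD. The other pairs of groups gave 0.11 to 0.19. The replicate block raised the count for ERK5-ko in Hs-578T to 3, adding ERBB2 (-0.25) and HBEGF (0.35). It also called NRG1 with ERK5-ko and MEK5DD in MDA-MB-231 (-0.31 and 0.49).

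Values below the threshold changed sign as follows. Median-ratio scaling gave 0.0086 for EGFR in the line difference with ERK5-ko, 0.0195 for TGFA with ERK5-ko in MDA-MB-231 and 0.0171 for BTC with MEK5DD in Hs-578T. Quantile normalization gave -0.0216 for ERBB2 and 0.0093 for EGF in the line difference with MEK5DD, 0.0859 for BTC with MEK5DD in Hs-578T and 0.11 for NRG2 between parental lines. With each library left out, EGFR ran from -0.46 to 0.35 (ERK5-ko) and from -0.21 to 0.61 (MEK5DD) in Hs-578T, from -0.62 to 0.11 (ERK5-ko against MEK5DD), and in the line differences from -0.49 to 0.32 (ERK5-ko) and from -0.57 to 0.24 (MEK5DD). ERBB2 ran from -0.023 to 0.31 (Hs-578T, ERK5-ko against MEK5DD) and from -0.11 to 0.23 (line difference, MEK5DD), ERBB3 from -0.0163 to 0.18 (Hs-578T, ERK5-ko against MEK5DD), NRG1 from -0.23 to 0.35 and BTC from -0.27 to 0.22 (Hs-578T, MEK5DD), EGF from -0.49 to 0.26 (line difference, MEK5DD) and NRG2 from -0.23 to 0.19 (parental lines). With the longest transcript as length, chosen after seeing the data, the log2 ratio of AREG to TGFA turned from -1.10 to 0.51 in parental and from -1.17 to 0.44 in MEK5DD cells of MDA-MB-231. The cause of these shifts was not tested. For ERK5-ko in MDA-MB-231, voom on recovered reads called 993 genes higher and 1523 lower (949 and 1430 in the report), while median-ratio scaling and quantile normalization turned the split to 1272 and 1119, and 1247 and 1215.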
